A study of Arabidopsis thaliana with 72 samples.

Results

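The comparison examined here is how far the transcriptional answer to N-hydroxy-pipecolic acid (NHP) in the sid2-2 mutant departed from that in wild type 3 h after treatment. It was taken for each gene as the log2 change from mock to NHP in sid2-2 minus the log2 change from mock to NHP in Col-0, so that a negative value means a lower response in the mutant. The libraries were chosen by genotype, treatment and the time in their titles, which gave 12 of the 72 RNA-seq libraries of the series, 3 in each of 4 groups. Col-0 is the wild-type accession of Arabidopsis thaliana, and sid2-2 is a single mutant allele of the isochorismate synthase gene ICS1 in the Col-0 background. Seedlings of both were treated on day 10 after germination in liquid Murashige and Skoog (MS) medium, with either MS medium alone (mock) or 0.5 mM NHP. Each library holds RNA of whole seedlings pooled from 1 well, so roots and shoots are mixed, the replicates are separate wells, and fewer cells of a type cannot be told apart from less RNA per cell. The rest of the series covers 15 min, 30 min and 6 h and a further genotype, fmo1, which lacks the enzyme that makes NHP.

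As background, NHP is made from the lysine product pipecolic acid by the monooxygenase FMO1 and promotes systemic acquired resistance, the broad protection of distal leaves that follows a local infection. Salicylic acid (SA) acts beside it, and most pathogen-induced SA in Arabidopsis comes from isochorismate, which ICS1 makes inside the chloroplast. SA is read by the NPR1 family of receptors, which act with TGA transcription factors on defence genes. The sid2-2 mutant therefore allows a test of which early changes after NHP differ when this SA route is blocked. SA itself was not among the data used here.

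The 12 libraries held 21044908 to 26930192 reads assigned to genes, and counts of replicate libraries differed by more than sampling noise in each of the 12 pairs. The mutated gene matched the labels. ICS1 stood at 9.94, 8.16 and 9.17 CPM (read counts scaled to library size, with TMM factors) in Col-0 mock and 11.2, 10.2 and 9.27 CPM in Col-0 NHP, against 0.718, 1.01 and 1.01 CPM in sid2-2 mock and 0.874, 1.06 and 0.532 CPM in sid2-2 NHP. All 6 mutant libraries thus lay below all 6 wild-type libraries (mock log2 difference -3.21 ± 0.17, with SE here and for each log2 difference, n = 3 wells a group, adjusted p = 1.66e-19), whereas the response of ICS1 to NHP did not pass the test of a genotype difference (-0.28 ± 0.277, adjusted p = 0.67). By the study's sample setup table, Col-0 mock is batch 5, Col-0 NHP and sid2-2 mock are batch 6 and sid2-2 NHP is batch 7, with batch not described further. Batch and the genotype difference in response therefore cannot be told apart at 3 h.

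Of 20926 genes tested, 69 responded higher in sid2-2 than in Col-0 and 380 responded lower (0.33% and 1.82% of the genes tested, edgeR quasi-likelihood test, Benjamini-Hochberg adjusted p < 0.05 over all genes), which is 449 genes or 2.15% in either direction. Beside them, 3393 genes (16.2%) had an unadjusted p under 0.05. Most of the called differences were small. In the lower set the median was -0.35 log2 (quartiles -0.40 and -0.30), and in the higher set it was 0.46 (0.37 and 0.64), beside a median of -0.0044 over all genes. In size, 336 of the 380 and 41 of the 69 were under 0.5. Past a log2 difference of 1 there were 5 genes (0.0239%), and past -1 there were 6 (0.0287%). The counts leaned on single wells. With each well left out in turn, the called genes ranged from 12 to 163 higher and from 83 to 544 lower, and the higher or the lower count moved by over 1.5 times without each well except Col-0 mock replicate 3 and Col-0 NHP replicate 2. Higher and lower calls were 14 and 83, 14 and 123, and 127 and 544 without sid2-2 mock replicates 1, 2 and 3, and 18 and 132, 12 and 89, and 163 and 538 without sid2-2 NHP replicates 1, 2 and 3. They were 22 and 105 and 41 and 189 without Col-0 mock replicates 1 and 2, and 30 and 164 and 36 and 274 without Col-0 NHP replicates 1 and 3. In each of 20 alternative analyses, 55 of the 380 and 4 of the 69 were called, where the alternative tested them.

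The lower genes had in common a high level in the sid2-2 mock wells. Among the 380, the sid2-2 mock mean was the highest of the 4 groups for 370 genes and the Col-0 mock mean was the lowest for 343. Their median log2 change after NHP was 0.13 in Col-0 and -0.22 in sid2-2, and their median genotype difference was 0.48 in mock and 0.10 in NHP. For the 69 higher genes the picture was inverted, with sid2-2 mock lowest for 57 and Col-0 mock highest for 45. Their medians were -0.14 in Col-0, 0.33 in sid2-2, -0.49 between mock groups and 0.03 between NHP groups. These values rest on the wells that chose the genes and are given as a description. Taken by response, 291 of the 380 were called down in sid2-2 alone, 27 up in Col-0 alone, 11 in opposite directions and 51 in neither.

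**Figure D1:**
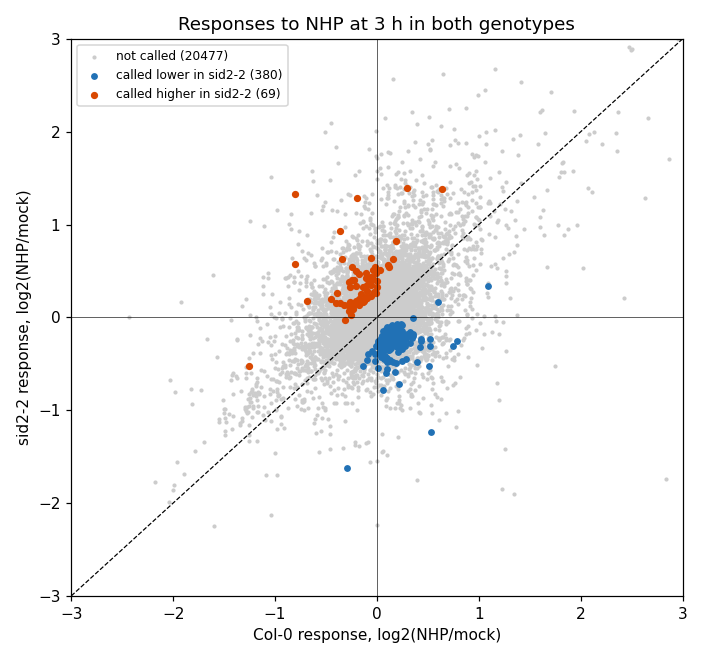
Response to NHP at 3 h of each gene tested, as log2 change from mock in Col-0 (horizontal) and in sid2-2 (vertical), with genes whose response differed marked by direction. The lower set sits mostly right of and below 0 and the higher set mostly above the diagonal, close to the origin in both. The axes end at 3 on either side, which leaves out 14 genes, 1 of them called.

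Upstream sequences are shown for 4 genes, to be read beside their values. The 4 were picked, after values were seen, from the 55 lower and 4 higher genes called in every alternative. The 250 bases before their annotated start hold no other annotated gene, and 2 are from the lower and 2 from the higher set. The letters are from RefSeq TAIR10.1 and read 5′ to 3′ on the gene's strand. Capitals mark matches, on either strand, to TTGAC (the core bound by WRKY factors), TGACG (the core bound by TGA factors), CACGTG (the G-box), GATAAG, AAAATATCT (the evening element), TGGGCC (the site II element of ribosomal and other growth genes), AAACCCTA (the telo-box) and TATAAA. The windows are chr4:14149599-14149848 (plus strand) for PSB28, chr5:22944994-22945243 (minus) for AT5G56710, chr5:25097694-25097943 (plus) for SRO5 and chr1:7455010-7455259 (minus) for EXT3.
PSB28: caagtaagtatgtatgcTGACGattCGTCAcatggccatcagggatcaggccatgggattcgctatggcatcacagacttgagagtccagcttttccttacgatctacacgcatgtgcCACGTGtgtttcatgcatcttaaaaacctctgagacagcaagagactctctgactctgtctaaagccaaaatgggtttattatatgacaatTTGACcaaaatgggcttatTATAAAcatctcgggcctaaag
AT5G56710: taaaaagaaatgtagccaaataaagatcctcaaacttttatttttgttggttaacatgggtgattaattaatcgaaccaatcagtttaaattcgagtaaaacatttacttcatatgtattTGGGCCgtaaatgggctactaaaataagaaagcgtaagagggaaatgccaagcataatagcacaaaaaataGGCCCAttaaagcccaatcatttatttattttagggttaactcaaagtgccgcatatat
SRO5: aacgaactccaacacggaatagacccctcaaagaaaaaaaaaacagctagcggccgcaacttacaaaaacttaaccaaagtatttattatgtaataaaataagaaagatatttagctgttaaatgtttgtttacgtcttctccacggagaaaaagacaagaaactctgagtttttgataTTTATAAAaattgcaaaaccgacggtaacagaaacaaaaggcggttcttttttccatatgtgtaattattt
EXT3: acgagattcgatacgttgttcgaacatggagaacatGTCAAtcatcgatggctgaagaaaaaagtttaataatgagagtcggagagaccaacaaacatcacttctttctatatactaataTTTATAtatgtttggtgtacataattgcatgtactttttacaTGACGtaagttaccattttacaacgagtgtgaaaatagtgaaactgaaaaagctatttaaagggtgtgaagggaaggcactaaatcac
In PSB28 the first bases of the matches lie at -233 and -225 for TGACG on the plus and minus strand, -132 for the G-box and -41 for TTGAC, counted back from the annotated start. AT5G56710 holds TGGGCC at -130 on the plus strand and at -59 on the minus strand. A match is a description of these letters and not evidence of binding.

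Over 20818 such windows, 16% held TGGGCC, against 27.7% of 375 windows of lower genes and 8.7% of 69 of higher genes. The telo-box stood at 3.51% of all, 4.8% and 1.45%. TTGAC was at 45.2% of all windows, 40.8% of the lower and 53.6% of the higher, TGACG at 19.2%, 20% and 18.8%, and TATAAA at 46.5%, 43.2% and 58%. CACGTG was at 7.15%, 7.73% and 2.9%, GATAAG at 12.3%, 14.1% and 7.25%, and AAAATATCT at 2.52%, 2.67% and 0%. These shares were not tested, and TGGGCC and the telo-box are common upstream of ribosomal protein genes in general.

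Photosynthesis transcripts held the highest share of lower calls among the 7 product groups. Of 60 tested genes whose product names a photosystem subunit or a light-harvesting protein, 29 responded lower in sid2-2 and 0 higher (48.3% against 1.82% of all genes). This grouping by words in the annotated product was chosen after values were seen, as were the product groups that follow, and each can include a few members of related families. The group's median difference was -0.31, with 58 of 60 members below 0. Its median response was 0.06 in Col-0 and -0.24 in sid2-2, and 43 of 60 members were called down in sid2-2 against 0 in Col-0, where 6.09% and 1.79% of all genes were. In sid2-2 mock the group's summed level was 77395 to 91678 CPM, above the 69529 to 74026 CPM of sid2-2 NHP, the 59765 to 60674 CPM of Col-0 NHP and the 56390 to 58878 CPM of Col-0 mock. The ranges of the 4 groups did not overlap.

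Within the group, PSB28, a factor of photosystem II assembly whose upstream window is printed above, was measured at 118, 128 and 132 CPM in Col-0 mock, 144, 135 and 131 CPM in Col-0 NHP, 212, 211 and 196 CPM in sid2-2 mock and 159, 152 and 175 CPM in sid2-2 NHP. The sid2-2 mock wells were the highest and did not overlap the sid2-2 NHP wells, while the Col-0 groups did overlap. The response of PSB28 was 0.12 in Col-0 and -0.35 in sid2-2, a difference of -0.46 ± 0.0794 (adjusted p = 0.00241). PSBO2, a subunit of the oxygen-evolving complex, stood at 753, 763 and 758 CPM in Col-0 mock, 830, 796 and 743 CPM in Col-0 NHP, 1290, 1259 and 1143 CPM in sid2-2 mock and 997, 940 and 993 CPM in sid2-2 NHP. It showed the same order of groups, with a difference of -0.39 ± 0.0781 (adjusted p = 0.00583). Its paralogue PSBO1 also responded lower (-0.29), and so did the photosystem I subunit PSAO (-0.43) and the light-harvesting protein CAB1 (-0.32). CAB1 was near the threshold (adjusted p = 0.0405) and was called in 7 of 20 alternatives. Outside the group as counted, lower responses were also found for NPQ4, which senses lumen acidity in photoprotection (-0.39), and for PETC, the Rieske protein of the cytochrome b6f complex (-0.27). PSBO1 with PSBO2, and CAB1 with its close copies, can share reads, so their separate values are uncertain.

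A few more photosynthesis genes, picked after their values were seen, are given for their size. AT3G63540 is already counted in the photosystem and light-harvesting group, and the others are not. NdhN, a subunit of the NADH dehydrogenase-like complex, which returns electrons from ferredoxin to plastoquinone, was at 29.5, 31.1 and 29.9 CPM in Col-0 mock, 35.7, 31.8 and 31.6 CPM in Col-0 NHP, 58, 53.2 and 55.9 CPM in sid2-2 mock and 40.6, 38.5 and 42.7 CPM in sid2-2 NHP. Each of the 4 groups was separate from the others (difference -0.59 ± 0.0963, adjusted p = 0.00202). The ferredoxins FdC1 (-0.60) and FD1 (-0.40), the complex-associated immunophilin PnsL4 (-0.57) and the thylakoid lumen PsbP-like protein AT3G63540 (-0.59) responded lower as well. NdhN and FdC1 overlap genes on the opposite strand, as do CAB1, CPN20, MYB95, AT1G04800, AT2G41090, AT4G38490 and AT5G11975 among other named genes. The gene that AT5G11975 overlaps, AT5G11970, was itself called higher. Whether the counting used strand was not given in the sources used here. Such overlap was found for 40% of the lower set, 23.2% of the higher set and 26.7% of all genes tested.

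Other plastid functions followed at lower rates, to be read beside the 1.82% of all genes called lower. Of 18 enzymes of chlorophyll synthesis, 6 responded lower (GSA1, GSA2, HEMD, LIN2, CHLM and POR C) and 0 higher, with a group median of -0.27. POR C, a light-dependent protochlorophyllide oxidoreductase, differed by -0.46 (adjusted p = 0.0128). Of 27 Calvin cycle enzymes, 5 responded lower (FBA1, FBA2, GAPA-2, RBCS1B and RPE) and 0 higher, with a median of -0.17. Of 17 chaperonins and plastid import proteins, 5 responded lower (CPN20, CPN60A, CPN60B, TOC33 and Tic20-I) and 0 higher, but their median, -0.05, was close to that of all genes.

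Ribosomal protein genes were the largest group by number, with 52 of 367 lower (14.2%) and 0 higher. Their median difference was -0.19, 327 of 367 lay below 0, and their median response was 0.05 in Col-0 and -0.14 in sid2-2. RPL12-C, a plastid ribosomal protein, was at 329, 330 and 363 CPM in Col-0 mock, 385, 364 and 367 CPM in Col-0 NHP, 478, 454 and 425 CPM in sid2-2 mock and 350, 348 and 383 CPM in sid2-2 NHP. The mutant mock wells were above all others, and the difference was -0.46 ± 0.0765 (adjusted p = 0.0021). AT5G56710, of the L31e family of the cytosolic ribosome, had 335, 361 and 349 CPM in Col-0 mock, 373, 375 and 380 CPM in Col-0 NHP, 463, 468 and 478 CPM in sid2-2 mock and 384, 382 and 399 CPM in sid2-2 NHP. Here each group was separate (-0.39 ± 0.0839, adjusted p = 0.0108). Plastid (PRPL35, PRPS20, PSRP4) as well as cytosolic members were thus among the genes called. Many ribosomal genes have near-identical copies, so the counts of single members are uncertain.

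Genes with plastid (ATCG) and mitochondrial (ATMG) identifiers were few among the genes called, at shares near or above the 1.82% of all genes called lower. The libraries were made from poly(A) RNA, in which organelle transcripts are poorly captured. Of 68 tested ATCG genes, 3 were lower (ATCG00470, ATCG00490 and ATCG01020) and 0 higher (4.41% lower), with a median of -0.21. Of 39 ATMG genes, ATMG00170 was lower (2.56%) and 0 were higher, with a median of -0.52. That median comes from genes at low levels. All 39 together summed to between 32.3 CPM, in a Col-0 mock library, and 62 CPM, in a sid2-2 mock library.

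**Figure D2:**
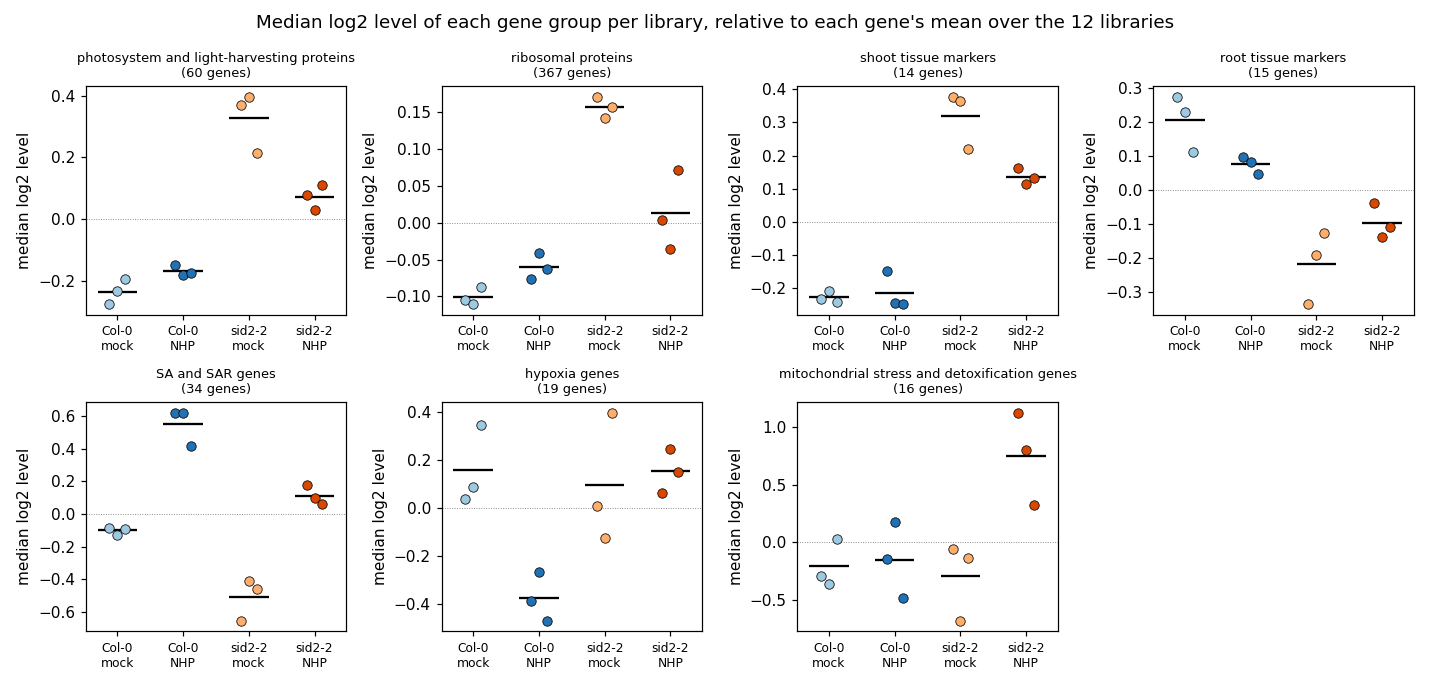
Median log2 level of 7 gene groups in each of the 12 libraries, relative to each gene's mean over the 12, with 3 points per treatment group. The photosystem, ribosomal and shoot marker groups are highest in sid2-2 mock, whereas the mitochondrial stress list is highest in sid2-2 NHP. Root markers are highest in Col-0 mock and SA and systemic acquired resistance genes in Col-0 NHP. Hypoxia genes are lowest in Col-0 NHP.

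The lower set also held genes outside the plastid. XTH6, a cell-wall xyloglucan endotransglucosylase, was at 24.1, 28.1 and 24.3 CPM in Col-0 mock, 32.7, 28.3 and 30 CPM in Col-0 NHP, 50, 44.3 and 40.3 CPM in sid2-2 mock and 29.8, 33.6 and 34.0 CPM in sid2-2 NHP. The mutant mock wells stood above all others (-0.72 ± 0.149, adjusted p = 0.00996). COL2, a CONSTANS-like transcription regulator, was at 7.83, 9.74 and 8.04 CPM in Col-0 mock, 10, 10.8 and 10.5 CPM in Col-0 NHP, 19.3, 19.2 and 17.6 CPM in sid2-2 mock and 12.8, 13.1 and 15.4 CPM in sid2-2 NHP, and its 4 groups were separate (-0.73 ± 0.147, adjusted p = 0.00665). XTH6 and COL2 were called in all 20 alternatives. COL2 overlaps genes on the opposite strand.

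FRO2, the ferric reductase of root iron uptake, fell in the mutant and did not pass the test in Col-0. It stood at 1.25, 1.51 and 1.33 CPM in Col-0 mock, 1.28, 1.13 and 0.862 CPM in Col-0 NHP, 2.79, 2.8 and 2.45 CPM in sid2-2 mock and 0.961, 0.794 and 0.677 CPM in sid2-2 NHP. The sid2-2 mock wells were the highest and the sid2-2 NHP wells mostly the lowest, overlapping Col-0 NHP. The response was -1.62 in sid2-2 (adjusted p = 2.64e-05) and -0.30 in Col-0 (adjusted p = 0.674), and the difference, -1.33 ± 0.373, was near the threshold (adjusted p = 0.0449) and was called in 7 of 19 alternatives. It was lost without 10 of the 12 wells, each left out alone, with the highest adjusted p (0.13) without Col-0 NHP replicate 1. Among 13 tested iron uptake genes FRO2 was the only one called (1.82% of all genes were called lower), with a list median of -0.10.

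A contrasting case was AT2G41090, a calcium-binding EF-hand protein named CML10 in the paper, where the wild-type response carried the difference at 3 h. Col-0 mock was at 84.9, 83.6 and 84.4 CPM and Col-0 NHP at 165, 184 and 189 CPM, whereas sid2-2 mock was at 73.1, 89.3 and 61.5 CPM and sid2-2 NHP at 92, 91.1 and 99.3 CPM. The Col-0 NHP wells were above all others. The gene rose by 1.09 log2 in Col-0 (adjusted p = 3.36e-07) against 0.33 in sid2-2 (adjusted p = 0.0995), a difference of -0.75 ± 0.185 (adjusted p = 0.0269) that was called in 13 of 20 alternatives and reached an adjusted p of 0.11 without sid2-2 mock replicate 2. In fmo1 its response was 1.22. At 6 h the gene rose by 1.66 in Col-0 and 1.23 in sid2-2, and the difference did not pass the test (-0.43, adjusted p = 0.298).

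Of the remaining lower genes with the largest differences, TIN1, a tunicamycin-induced protein, differed by -1.04 ± 0.269 (adjusted p = 0.0308, called in 11 of 19 alternatives). BIP1, a chaperone of the endoplasmic reticulum, had a smaller difference (-0.31). It was the only member called of 17 heat shock and endoplasmic reticulum chaperone genes (median -0.21), beside 1.82% of all genes called lower. The R2R3-type regulator MYB95 differed by -0.73, and the uncharacterised or broadly annotated genes AT2G39690, AT1G11850, AT1G21540, AT2G42170, AT5G19151, AT1G04800 and AT5G65205 by -1.04 to -0.75. Several of these calls were not steady over the alternatives. MYB95 was called in 6 of 19, AT5G19151 in 7 of 19, AT5G65205 in 8 of 19 and AT1G11850 in 9 of 20. AT1G04800 was called in 10 of 20, AT2G39690 in 12 of 19, AT2G42170 in 15 of 19 and AT1G21540 in 17 of 19. The plastid gene ATCG01020 was at 8.01, 12.9 and 9.49 CPM in Col-0 mock, 19.5, 18.21 and 13.5 CPM in Col-0 NHP, 28.7, 25.3 and 25.1 CPM in sid2-2 mock and 20, 21.4 and 22.6 CPM in sid2-2 NHP. All its sid2-2 wells were above all its Col-0 wells (-1.05 ± 0.217, adjusted p = 0.0104). The most negative fitted value, -6.04 for AT5G11975, depends on the prior count, since its raw counts were 1, 58 and 0 in Col-0 mock, 79, 58 and 5 in Col-0 NHP, 47, 102 and 47 in sid2-2 mock and 0, 1 and 0 in sid2-2 NHP.

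**Figure D3:**
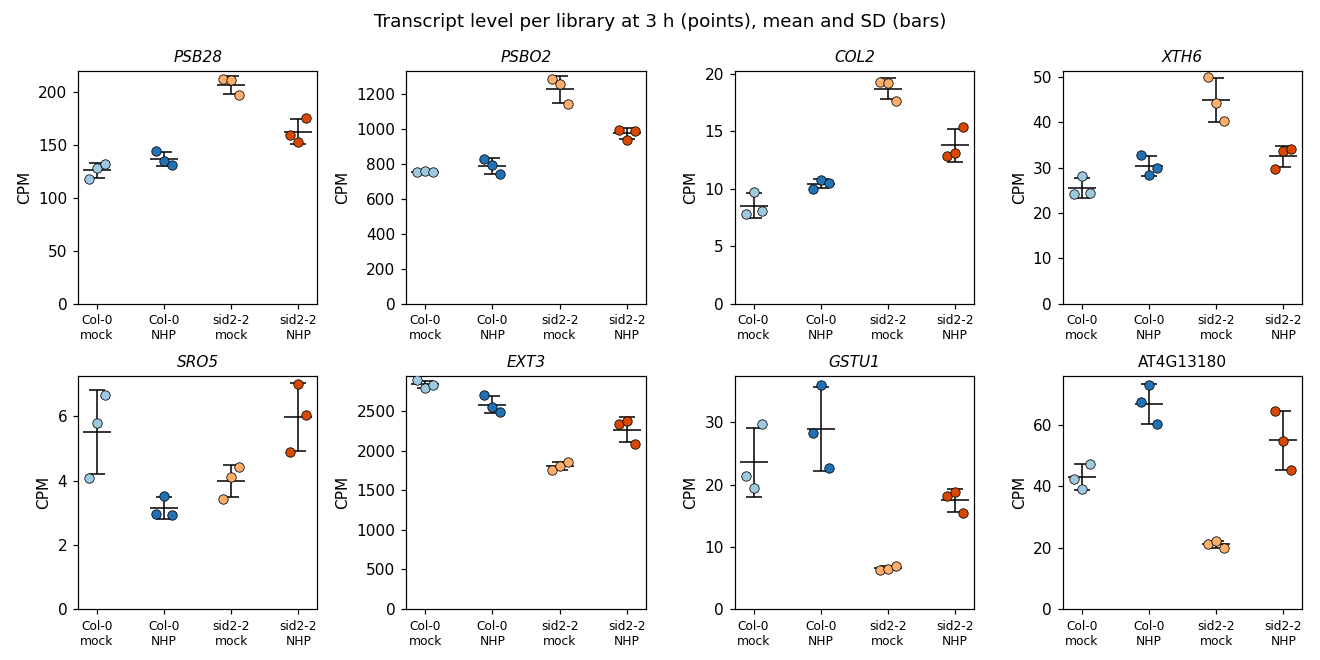
Level in CPM of 8 genes in each of the 12 libraries, one panel per gene with its own axis from 0; points are libraries and bars mark the mean and SD of 3. In PSB28, PSBO2, COL2 and XTH6 the sid2-2 mock wells are the highest, and in EXT3, GSTU1 and AT4G13180 they are the lowest.

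The higher set was smaller and mixed. SRO5, of a family of proteins with a PARP-like domain, was the only gene called up in sid2-2 and down in Col-0. It was at 4.07, 5.78 and 6.66 CPM in Col-0 mock, 2.96, 3.52 and 2.93 CPM in Col-0 NHP, 3.43, 4.11 and 4.42 CPM in sid2-2 mock and 4.89, 7.01 and 6.04 CPM in sid2-2 NHP. Mock and NHP wells were separate within each genotype, with NHP lower in Col-0 and higher in sid2-2. Its response was -0.80 in Col-0 (adjusted p = 0.0113) and 0.58 in sid2-2 (adjusted p = 0.0442), a difference of 1.38 ± 0.279 (adjusted p = 0.00673), called in all 19 alternatives that tested it. It overlaps AT5G62530 on the opposite strand.

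EXT3, an extensin of the cell wall whose upstream window was also printed, was at 2886, 2788 and 2833 CPM in Col-0 mock, 2698, 2547 and 2494 CPM in Col-0 NHP, 1760, 1803 and 1863 CPM in sid2-2 mock and 2342, 2377 and 2079 CPM in sid2-2 NHP. Its 4 groups were separate, with NHP wells below mock wells in Col-0 and above them in sid2-2. The response was -0.14 in Col-0 (adjusted p = 0.22) and 0.33 in sid2-2 (adjusted p = 0.000101), a difference of 0.46 ± 0.0802 (adjusted p = 0.00258). The phosphoinositide kinase gene FAB1C (0.34) and the ARM repeat gene AT1G05960 (0.43) were, with SRO5 and EXT3, the 4 higher genes called in every alternative.

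Detoxification enzymes were also represented. GSTU1, a tau-class glutathione S-transferase, was at 21.4, 19.5 and 29.8 CPM in Col-0 mock, 28.3, 36 and 22.6 CPM in Col-0 NHP, 6.34, 6.48 and 6.96 CPM in sid2-2 mock and 18.18, 18.8 and 15.4 CPM in sid2-2 NHP. The Col-0 groups overlapped, and both sid2-2 groups lay below them and apart from each other (1.10 ± 0.273, adjusted p = 0.0286, called in 12 of 20 alternatives), and the adjusted p was 0.0891 without sid2-2 mock replicate 1. GSTU7 also responded higher (0.64), and these were the 2 called of 38 tested GSTU and GSTF genes, whose median was 0.07. Of all genes, 0.33% were called higher. AT4G13180, a short-chain dehydrogenase-like protein, was at 42.3, 38.9 and 47.3 CPM in Col-0 mock, 67.2, 72.9 and 60.1 CPM in Col-0 NHP, 21.1, 22.2 and 19.8 CPM in sid2-2 mock and 64.4, 54.8 and 45.3 CPM in sid2-2 NHP. It was called up in both genotypes, from a lower mock level in sid2-2, and differed by 0.74 ± 0.161 (adjusted p = 0.0118).

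AT4G01870, a tolB-like protein, was at 309, 260 and 426 CPM in Col-0 mock, 264, 306 and 203 CPM in Col-0 NHP, 42.1, 33.3 and 37.2 CPM in sid2-2 mock and 91.9, 66.7 and 55.8 CPM in sid2-2 NHP. The mutant wells were below the wild-type wells under either treatment (difference in response 1.29 ± 0.314, adjusted p = 0.0252, called in 10 of 20 alternatives). AT5G43450, of the 2-oxoglutarate-dependent oxygenases, reached 1.48 ± 0.412 with an adjusted p of 0.0497 and was called in 6 of 20. Without sid2-2 NHP replicate 1 the adjusted p was 0.0986 for AT4G01870 and 0.161 for AT5G43450. MLS, the malate synthase of the glyoxylate cycle, differed by 0.97 ± 0.229 (adjusted p = 0.0184). The others at this end were AT3G21340, AT1G77885, AT3G18450, AT5G61820, AT2G40113, AT2G32150, AT5G61390, cPT4 and AT5G21280, from 0.87 to 0.65. The low-count gene 5PTASE11 had the highest fitted value called (2.13).

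Opposite calls were few. Besides SRO5, 11 genes were called up in Col-0 and down in sid2-2, among them the plastid chaperonin CPN20, which changed by 0.20 in Col-0 (adjusted p = 0.0236) and by -0.19 in sid2-2 (adjusted p = 0.0122), a difference of -0.39 ± 0.0754 (adjusted p = 0.00469). The others were AT4G38490 (-0.51), MRL7-L (-0.50), emb1513 (-0.48), AT2G44760 (-0.46), NDPK2 (-0.42), AT4G01150 (-0.39), AT1G02150 (-0.38), AT4G01310 (-0.37), MSRB2 (-0.34) and RPL24 (-0.34).

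Most genes past a log2 of 1 in 1 genotype and not in the other did not pass the test of the difference. After NHP, 374 genes were called up and 375 down in Col-0 (1.79% and 1.79%), and 1178 up and 1275 down in sid2-2 (5.63% and 6.09%). Past a log2 of 1 or -1 the shares were 0.363% up and 0.478% down in Col-0 and 1.16% up and 0.258% down in sid2-2. Of 193 genes called up past a log2 of 1 in sid2-2 but not past it in Col-0, the difference was called for 4 (5PTASE11, AT4G13180, AT5G43450 and GSTU1), and 164 had a positive value in Col-0. Their median response was 0.50 in Col-0 and 1.34 in sid2-2, with a median difference of 0.90. Of 27 genes up past 1 in Col-0 but not past it in sid2-2, it was called for AT2G41090 alone, and their median difference was -0.75. These medians rest on the wells that chose the genes. A difference that was not called is not shown to be absent. Of the 49 genes up past 1 in both, it was called for 0. On the falling side it was called for 3 of 19 genes past -1 in sid2-2 only, 1 of 65 past it in Col-0 only and 0 of 35 in both.

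None of the 34 SA and systemic acquired resistance genes tested was called for a difference, higher or lower. Their median response was 0.63 in Col-0 and 0.77 in sid2-2. Of the members, 16 were called up in Col-0 and 17 in sid2-2 (1.79% and 5.63% of all genes were). Their median difference was -0.07 (range -2.22 to 0.83). The SA-responsive regulator WRKY70 was at 3.58, 3.37 and 3.53 CPM in Col-0 mock, 18.7, 17.8 and 18.4 CPM in Col-0 NHP, 1.96, 3.06 and 1.87 CPM in sid2-2 mock and 13.5, 10.4 and 8.9 CPM in sid2-2 NHP. NHP wells were far above mock wells in both genotypes, with sid2-2 lower under each treatment. WRKY70 rose by 2.36 in Col-0 and 2.21 in sid2-2, and the difference, -0.15 ± 0.372, did not pass the test (adjusted p = 0.889). With an SE of this size the test does not show that the responses were equal.

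The mitochondrial stress and detoxification list, which holds genes of the retrograde signal from the mitochondrion, had the highest list median, 0.99, yet 0 of its 16 members were called for a difference. Its median response was 0.09 in Col-0 and 1.17 in sid2-2. Called up were 1 member in Col-0 and 14 in sid2-2, beside 1.79% and 5.63% of all genes. AOX1A, the alternative oxidase, was at 28.6, 30.3 and 35 CPM in Col-0 mock, 29.2, 50.9 and 27.9 CPM in Col-0 NHP, 86.4, 46.6 and 57.3 CPM in sid2-2 mock and 187, 130 and 81.8 CPM in sid2-2 NHP. Wells of 1 group varied widely and the sid2-2 groups overlapped (0.87 ± 0.509, adjusted p = 0.413). The glycosyltransferase gene UGT74E2 was similar (2.07 ± 1.01, adjusted p = 0.303). For rapid stress and touch genes, 12 of 21 tested were called up in sid2-2 and 0 in Col-0 (5.63% and 1.79% of all genes were). Of their differences 0 were called, with a median of 0.23.

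Hypoxia genes had a median difference of 0.52, all 19 members lay above 0, and SRO5 was the 1 called (0.33% of all genes were called higher). Their median response was -0.50 in Col-0 and -0.0013 in sid2-2. Root hair genes fell in both genotypes, with 10 of 12 called down in Col-0 and 7 in sid2-2 (1.79% and 6.09% of all genes were). They had a median difference of 0.35 and 0 differences called. No member was called among 28 jasmonate and wound genes (median 0.05), 29 abscisic acid and dehydration genes (0.17), 17 camalexin and indole glucosinolate genes (0.23), 18 clock genes (0.01), 18 pattern-triggered immunity genes (0.19), 61 NAC factors (0.19) and 36 cysteine-rich receptor-like kinases (0.04). In the WRKY family, WRKY14 was the 1 of 58 called (0.56), beside 0.33% of all genes called higher, with a family median of 0.11.

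Markers of leaf and root tissue were set beside the differences. All 14 shoot and 15 root markers were detected, the lowest being CASP5 at 0.048 CPM in 1 library. Summed shoot markers stood at 31052 to 31830 CPM in Col-0 mock, 32610 to 34333 CPM in Col-0 NHP, 45520 to 50940 CPM in sid2-2 mock and 43664 to 45172 CPM in sid2-2 NHP. This sum is nearly all from 9 photosynthesis genes of the list (RBCS1A, CAB1, LHCB2.1, LHCA1, RCA, CA1, GAPA, PRK and PSBO1) and so overlaps the lower set. Of these, CAB1 (called in 7 of 20 alternatives) and PSBO1 responded lower. The 5 other shoot markers were mixed, with the stomatal regulator FMA called lower (-0.65), the leaf polarity regulator KAN called higher (0.59), and SPCH (0.11), AS1 (0.16) and STM (-0.42) not called. The FMA call was near the threshold (adjusted p = 0.0398) and was made in 7 of 19 alternatives. In mock, SPCH, KAN, AS1 and STM differed between genotypes by -0.09 to 0.08, and FMA by 0.50. The root markers tended the other way. Their median mock difference was -0.53, with 9 of 15 called lower in sid2-2 and 1 called higher. Of all 20926 genes tested, 3369 were called lower and 4213 higher in this mock comparison. The root markers had a median difference in response of 0.20, and 13 of 15 lay above 0. The phosphate exporter PHO1 was the 1 called (0.45), beside 0.33% of all genes called higher. The median log2 level of the root markers, relative to each gene's mean over the 12 libraries, was 0.11 to 0.27 in Col-0 mock, 0.05 to 0.10 in Col-0 NHP, -0.34 to -0.13 in sid2-2 mock and -0.14 to -0.04 in sid2-2 NHP. Their summed CPM is dominated by BGLU23, at 3519 to 4355 CPM in the 12 libraries, and ran from 3737 to 4571 CPM with overlapping groups. The part of a shifted share of shoot to root RNA in the differences was not tested.

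Libraries that did not enter the 3 h difference showed where the mock contrast stood elsewhere. At 15 min both mock groups are in batch 1, and there the 380 lower genes had a median sid2-2 minus Col-0 mock difference of 0.28, with 294 called higher (18.1% of all genes were) and 1 lower. The 69 higher genes had a median of -0.26, with 39 called lower (13.3% of all genes). At 30 min the medians were 0.25 and -0.30, with 289 called higher (15.4%) and 39 called lower (10.8%). There Col-0 mock is batch 3 and sid2-2 mock batch 4, so genotype and batch cannot be told apart. At 6 h the medians were 0.25 and -0.30, with 270 called higher (16.3%) and 41 called lower (14.3%). At that time Col-0 mock lies in batches 7 and 8 and sid2-2 mock in batch 8. The medians at 3 h, 0.48 and -0.49, were farther from 0. Within batch 6 at 3 h, sid2-2 mock was called higher than Col-0 NHP in 319 of the 380 (17.9% of all genes were). The median was 0.32, in wells that also enter the difference.

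The medians of the difference in response over both sets were closer to 0 at the other times, though single genes were not. At 6 h, 87 of the 380 lower genes lay above 0 (22.9%, against 49.7% of all genes), the median was -0.07, and 6 were called lower (0.382% of all genes were). Of the 69 higher genes, 48 lay above 0 (69.6%), the median was 0.13, and 4 were called higher (0.664%). The 6 h design allows library batch as a term through 1 mock and 1 NHP well of Col-0 in the same batch. This term was used in a separate fit of the 6 h libraries of Col-0 and sid2-2 alone. There 125 and 47 lay above 0 and the medians were -0.05 and 0.07. XTH6 was called lower at 6 h (-1.01 ± 0.169, adjusted p = 0.00265). That call was lost in the separate fit (-0.92 ± 0.233, adjusted p = 0.0805), which had fewer libraries as well as the batch term. SRO5 was at -0.23 at 6 h. At 15 min the signs were mostly the reverse, with 305 of the 380 and 15 of the 69 above 0 (medians 0.07 and -0.12), and at 30 min 247 and 48 were above 0 (medians 0.06 and 0.09). At 30 min, 3 of the 380 were called lower, FRO2 (-1.61, adjusted p = 0.0418), BIP1 (-0.38, adjusted p = 0.0103) and RANBP1, and 0 of the 69 were called higher. Across all genes, 0 were called higher and 1 lower at 15 min (0% and 0.00478%), 3 and 37 at 30 min (0.0143% and 0.177%) and 139 and 80 at 6 h.

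**Figure D4:**
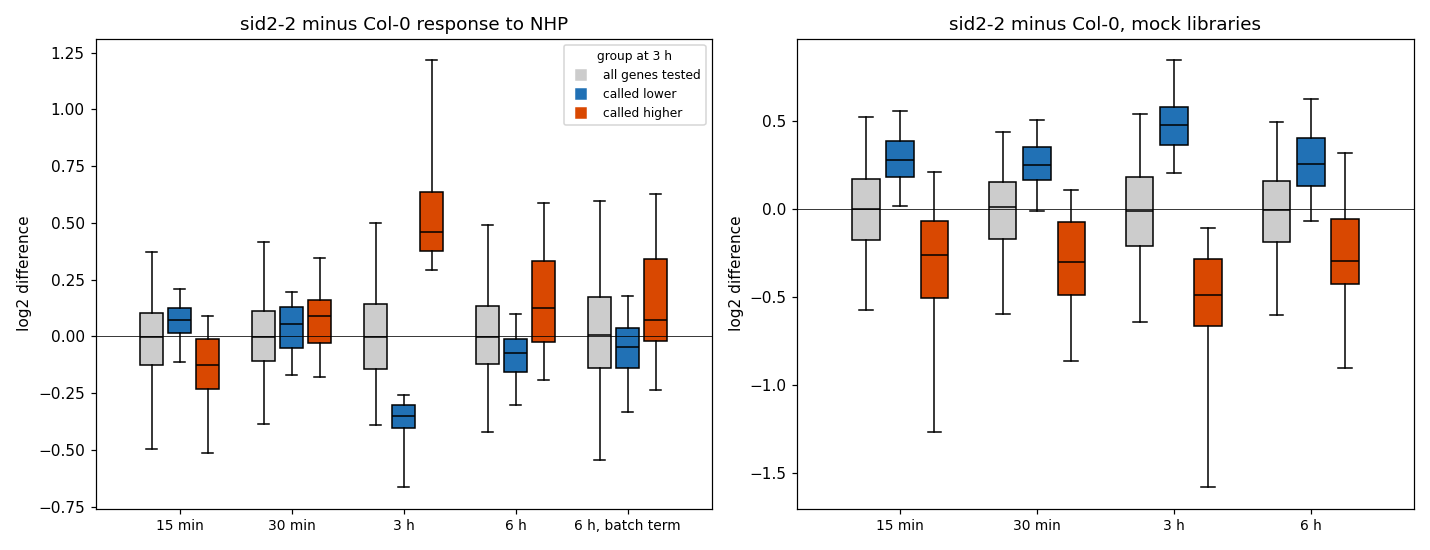
Box plots of log2 values for all genes tested and for the genes called lower or higher at 3 h, with boxes from the first to the third quartile, a line at the median and whiskers from the 5th to the 95th percentile. The left panel gives the difference in response at each time, which is far from 0 mainly at 3 h where the genes were chosen, and the right panel the sid2-2 minus Col-0 mock difference, with medians of the lower set between 0.25 and 0.48 at all 4 times.

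In fmo1, whose wells are independent of the 3 h difference, the median responses of both sets after 3 h of NHP were small. The median response was -0.04 for the 380, with 5 called up and 9 down, and 0.01 for the 69, with 5 called up and 3 down. Of all genes, 2.17% were called up and 1.8% down, and both shares were exceeded in the 69. Between fmo1 mock wells and the Col-0 mock wells, which also enter the 3 h difference, 0 of either set were called, and 6 genes were called higher and 8 lower over all genes.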

How the data were processed

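Total RNA of 72 seedling samples was sequenced after poly(A) selection. Per the study's methods, the authors trimmed reads in CLC Genomics Workbench and mapped them to TAIR10; the deposited values are raw read counts per gene, and the sources used here do not give the counter, its annotation or its use of strand. Of 27655 gene identifiers, 27445 matched the RefSeq TAIR10.1 annotation, which gave symbols and products. Counts of the 48 Col-0 and sid2-2 libraries were filtered (filterByExpr, minimum count 10, minimum total 15), scaled by TMM and fitted with edgeR 4.0.16 (robust quasi-likelihood, prior count 2, 16 groups) in R 4.3.3, and the difference of the 2 responses at 3 h was tested with Benjamini-Hochberg adjustment over 20926 genes at 0.05. The paper's authors tested each genotype and time apart. Responses in fmo1 came from a fit of all 72 libraries. CPM values use TMM-scaled library sizes.

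Named genes were the 15 largest and 15 smallest differences called in genes whose best-covered group averaged 50 counts or more, called members of the 14 lists and 4 families, and ICS1. PSB28, PSBO2, PSAO, NPQ4, PETC, NdhN, FdC1, FD1, PnsL4, AT3G63540, RPL12-C, AT5G56710, EXT3, FAB1C, AT1G05960, 5PTASE11, AOX1A, UGT74E2, WRKY70, RANBP1, the shoot markers with their values, the opposite calls, the members named from the 7 product groups and the promoters were chosen after their values were seen. Members and lists were chosen with earlier results of these data known. One library of sid2-2, 30 min, NHP carries a 3 h tag but a 30 min title and was kept by title; its mean correlation of log CPM was 0.990 with the other 30 min wells and 0.979 with the 3 h wells. Scripts were tested on simulated data. Alternatives were DESeq2 1.42.0, its size factors, no filter, the 12 or all 72 libraries, a replicate block, each well left out and, added after seeing the data, organelle genes left out and a batch term at 6 h, the last in a fit of the 6 h libraries alone.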

Additional observations from a re-analysis of the deposited data

Results flagged for a closer look

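The 69 genes called higher and the 380 called lower were singled out because the response in sid2-2 and that in Col-0 differed by a test of the difference itself. Within them, 12 genes were called in opposite directions in the 2 genotypes. SRO5 (1.38) fell in Col-0 and rose in sid2-2. The others rose in Col-0 and fell in sid2-2, namely AT4G38490 (-0.51), MRL7-L (-0.50), emb1513 (-0.48), AT2G44760 (-0.46), NDPK2 (-0.42), CPN20 (-0.39), AT4G01150 (-0.39), AT1G02150 (-0.38), AT4G01310 (-0.37), MSRB2 (-0.34) and RPL24 (-0.34), each value being the log2 difference in response. The 4 groups at 3 h lie in 3 batches, so batch and these differences cannot be told apart.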

How the results depend on the processing

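Over the alternatives run, 0 of 1198 values of the named genes turned the direction of a call, and 304 no longer passed the threshold. The count of lower genes, 380, was 203 with no filter on low counts and 211 with the 12 libraries of 3 h alone, and the count past -1 was then 2. With all 72 libraries 12 genes were past 1. DESeq2 called 158 higher and 550 lower, with 1 past -1, and 57 of its higher and 361 of its lower genes were also called by edgeR. With 1 well left out at a time, the counts ran from 12 to 163 higher, 83 to 544 lower, 1 to 21 past 1 and 1 to 12 past -1; the cause was not tested. With DESeq2's size factors they were 69 and 269, and without organelle genes 70 and 397. Without the sid2-2, 30 min library of doubtful time they were 74 and 390. Replicate numbers showed no pairing of the samples. After each gene's group mean of log CPM was subtracted, same-numbered libraries of different groups correlated at -0.0853 to 0.0890 over 18 pairs. A differently numbered pair, Col-0 mock replicate 3 with sid2-2 mock replicate 1, reached 0.144. The replicate block gave 73 higher and 402 lower genes. The values rest on 3 wells a group, a single mutant allele and groups that lie in different batches.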
